A study of Arabidopsis thaliana with 8 samples.

Results

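accD and clpP are housekeeping genes of the Arabidopsis plastid genome, and their contacts were taken as all bin pairs of a 1 kb contact map in which at least 1 bin lay in either locus. accD was covered by 2 bins, 57001 to 58000 and 58001 to 59000 of the plastid chromosome (Pt) of TAIR10, and clpP by 3 bins, 69001 to 70000, 70001 to 71000 and 71001 to 72000. These 5 bins, of a map with 84 bins in the large single copy region, 54 in the copies of the inverted repeat and 17 in the small single copy region, entered 765 of its 12090 bin pairs. In the gene table, the accD bins held accD alone, the bins starting at 70001 and 71001 held clpP, and the bin starting at 69001 held its remaining part. The trans-spliced gene rps12, whose parts lie far from each other, was not assigned to bins. accD lies beside rbcL, and clpP lies between the rps18 and rpl20 genes and the psbB operon.

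accD encodes the carboxyltransferase beta subunit of the plastid acetyl-CoA carboxylase, which makes malonyl-CoA for fatty acid synthesis. clpP encodes a proteolytic subunit of the Clp protease, the main soluble protease of the stroma. Plastid genes are read by a nuclear-encoded phage-type polymerase and by a plastid-encoded bacterial-type polymerase. accD is a standard example of a gene read by the nuclear-encoded enzyme, clpP has a strong promoter for it, and photosynthesis genes such as rbcL and psbB depend on the plastid-encoded enzyme.

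Hi-C joins DNA ends that lie near each other and counts the joined ends by sequencing. It was applied to chloroplast membrane samples from rosette leaves of 14-day-old wild-type Arabidopsis thaliana plants of the Col0 ecotype. The EGS group held 4 libraries labelled as crosslinked with EGS (5 mM, 45 min) and formaldehyde (4%, 4 h), and the nox group held 4 libraries labelled as non-crosslinked, which serve as negative controls. All 8 samples share genotype, tissue and organelle, and the labels carry 1 protocol text for all of them, so the treatment label alone sets the groups apart. The labels do not say whether replicates came from separate plants, so p-values measure the spread between these libraries, which may be technical.

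The libraries held 351828 to 708524 contacts. Long-range contacts, meaning those between bins more than 5 kb apart with a bin of the inverted repeat taken as lying at both of its copies, numbered 10932 to 52963 in the EGS libraries and 2643 to 50513 in the nox libraries. They made up 9.74%, 5.58%, 4.76% and 3.11% of all contacts in EGS replicates 1 to 4, and 7.13%, 5.23%, 0.740% and 1.03% in nox replicates 1 to 4. Nox replicates 3 and 4 thus stood apart with few long-range contacts, and results were also computed within the 4 deeper libraries (replicates 1 and 2 of each group) and within the 4 shallower ones. Replicates differed by more than sampling noise: a chi-square comparison of pair counts gave at least 1.94 per degree of freedom for each 2 libraries. It gave 1.94 to 5.99 between EGS libraries, 5.40 to 38.2 between nox libraries and 22.1 to 52.9 between libraries of different groups. Some nox libraries thus differed from each other as much as some libraries of different groups did.

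The first question was whether the long-range contacts of each locus differed between crosslinked and non-crosslinked libraries. The second accD bin and the second and last clpP bins took a smaller share of the long-range contacts in EGS than in nox libraries, while the first bin of each locus did not pass the test. The bins thus split within each locus, where the first clpP bin holds only a part of its gene. All shares are given per 1000 long-range contacts of the library, on a scale where an average bin of the map has 12.9.

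The first accD bin, starting at 57001, had 14.2, 13.2, 14.8 and 14.9 per 1000 in EGS replicates 1 to 4 and 15.01, 11.97, 17.4 and 11.4 in nox replicates 1 to 4. The groups overlapped, and the log2 difference was -0.05 ± 0.11 (SE, 4 against 4 libraries, edgeR quasi-likelihood adjusted p = 0.708). The second accD bin, starting at 58001, had 9.52, 12.1, 11.2 and 11.8 per 1000 in EGS and 15.1, 15.8, 20.4 and 18.5 in nox libraries. Every EGS library lay below the map average and every nox library above it, and the log2 difference was -0.67 ± 0.11 (adjusted p = 5.9e-05 by edgeR).

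In clpP, the first bin had 14.1, 12.1, 13.9 and 14.6 per 1000 in EGS and 12.5, 11.8, 9.84 and 12.3 in nox libraries. The groups overlapped, with a log2 difference of 0.08 ± 0.09 (adjusted p = 0.449 by edgeR). In a fit of single-copy bins alone this bin passed the test, at 0.23 with an adjusted p of 0.027. The second clpP bin, starting at 70001, had 10.99, 12.5, 9.87 and 13.8 per 1000 in EGS and 18.2, 17.9, 20.4 and 24.6 in nox libraries. Its groups did not overlap, and the log2 difference was -0.84 ± 0.12 (adjusted p = 1.8e-05 by edgeR), the largest drop among the 5 bins. The last clpP bin, starting at 71001, had 11.3, 11, 11.5 and 10.7 per 1000 in EGS and 16.5, 15.96, 20.1 and 19.4 in nox libraries. Its EGS libraries lay within a narrow range below every nox library, with a log2 difference of -0.72 ± 0.09 (adjusted p = 4.7e-06 by edgeR).

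**Figure D1:**
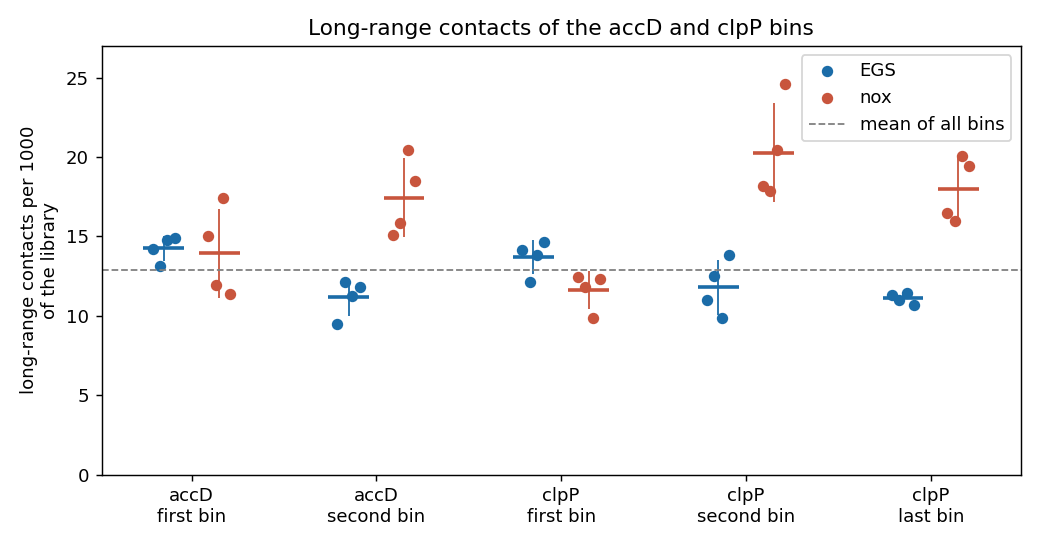
Long-range contacts of the 5 accD and clpP bins, per 1000 long-range contacts of the library (y axis), in the 4 EGS (blue) and 4 nox (red) libraries. Points are libraries, horizontal bars group means, vertical lines ± 1 SD, and the dashed line is the map average of 12.9; the second accD bin and the second and last clpP bins have no overlap between the groups.

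Relative to the value, counting error was widest for the first clpP bin in nox replicate 3, which rested on 26 long-range contacts. Its 9.84 per 1000 had a 95% Wilson interval from 6.72 to 14.4, which covers counting error only. Per 1000, the second accD bin and the second clpP bin of that library had wider intervals, both from 15.7 to 26.6. In that library the 3 lower bins rested on 54, 54 and 53 contacts. Within the 4 deeper libraries the log2 differences of these bins were -0.63, -0.73 and -0.64 in gene order, and within the 4 shallower libraries they were -0.96, -1.19 and -1.04, with all 6 values past the threshold.

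Over the whole map, 34.8% of bins were called lower in EGS and the groups of 65.2% of bins did not overlap in either direction. Among the 84 bins of the large single copy region, which holds both loci, 44% were called lower and 26.2% higher. Of the 5 accD and clpP bins, 3 were lower and none was higher. In rank from the lowest log2 value among the 84 bins these 3 were numbers 17, 13 and 15. The median log2 difference of those 84 bins was -0.07, with accD bins at -0.05 and -0.67. These directions are relative to the other long-range contacts: with all contacts as the library size, the median of all bins moved to 0.86, the 3 bins turned to 0.16, 0.02 and 0.14, and no bin of the map passed edgeR's test (4 had an unadjusted p under 0.05).

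The contrast between bins of 1 locus does not depend on library scaling, because both counts come from the same library. In accD, the log2 ratio of long-range contacts of the first over the second bin was 0.58, 0.12, 0.39 and 0.34 in EGS replicates 1 to 4 and -0.01, -0.40, -0.23 and -0.70 in nox replicates 1 to 4. The first bin exceeded the second in every EGS library and in no nox library, and the difference between groups was 0.69 (exact two-sided permutation p = 0.0286, the smallest that 70 assignments can give, adjusted p = 0.0381 over 8 ratios). In clpP, the log2 ratio of the first over the second bin averaged 0.22 ± 0.25 (SD, n = 4) in EGS and -0.80 ± 0.27 in nox libraries, a difference of 1.02 (exact permutation p = 0.0286, adjusted p = 0.0381). The first over the last bin gave 0.30 ± 0.13 against -0.63 ± 0.29, a difference of 0.93 with the same exact permutation p, raw and adjusted. Between the second and last clpP bins no difference was detected, at 0.07 ± 0.26 against 0.17 ± 0.13 (SD, n = 4, exact permutation p = 0.543). The value of -0.10 ranged from -0.19 to 0.00 when single libraries were left out. All 8 ratios, including those against the rpoB operon, the psbB operon and rbcL given next, were chosen after the bin values were seen. Of the 8, 6 sat at the smallest exact permutation p, and their adjusted p of 0.0381 depends on that number. How often such ratios separate the groups elsewhere on the map was not computed.

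The rpoB operon, which lies farther off in the same region, and the neighbouring psbB operon and rbcL were set beside accD and clpP by the same measure. Against the rpoB operon, whose genes encode plastid polymerase subunits and are also read by the nuclear-encoded enzyme, accD had log2 ratios of long-range contacts per bin of -0.07, 0.09, 0.05 and 0.07 in EGS and 0.32, 0.26, 0.75 and 0.49 in nox libraries. The groups did not overlap, and the difference of EGS minus nox was -0.42 (exact permutation p = 0.0286, adjusted p = 0.0381). clpP stood at -0.02 ± 0.05 (SD, n = 4) against 0.54 ± 0.21 relative to the rpoB operon, a difference of -0.56 with the same exact permutation p. The 12 rpoB operon bins held 3 called higher and 5 called lower, with a median log2 difference of -0.05 and a range from -0.79 to 1.08.

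The psbB operon, which encodes photosystem II and cytochrome b6f subunits, begins in the bin after clpP. clpP relative to this operon had log2 ratios of -0.20, -0.25, -0.37 and -0.11 in EGS and 0.32, 0.30, 0.78 and 0.61 in nox libraries. clpP was thus below its neighbour in every EGS library and above it in every nox library, a difference of -0.74 (exact permutation p = 0.0286, adjusted p = 0.0381). accD relative to rbcL, the gene of the Rubisco large subunit, gave -0.11 ± 0.09 against -0.13 ± 0.26 (SD, n = 4), and no difference was detected (0.02, exact permutation p = 0.886), with a range from -0.05 to 0.15 when single libraries were left out. The 3 rbcL bins themselves changed in opposite directions, at -0.94, 0.41 and -0.69.

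**Figure D2:**
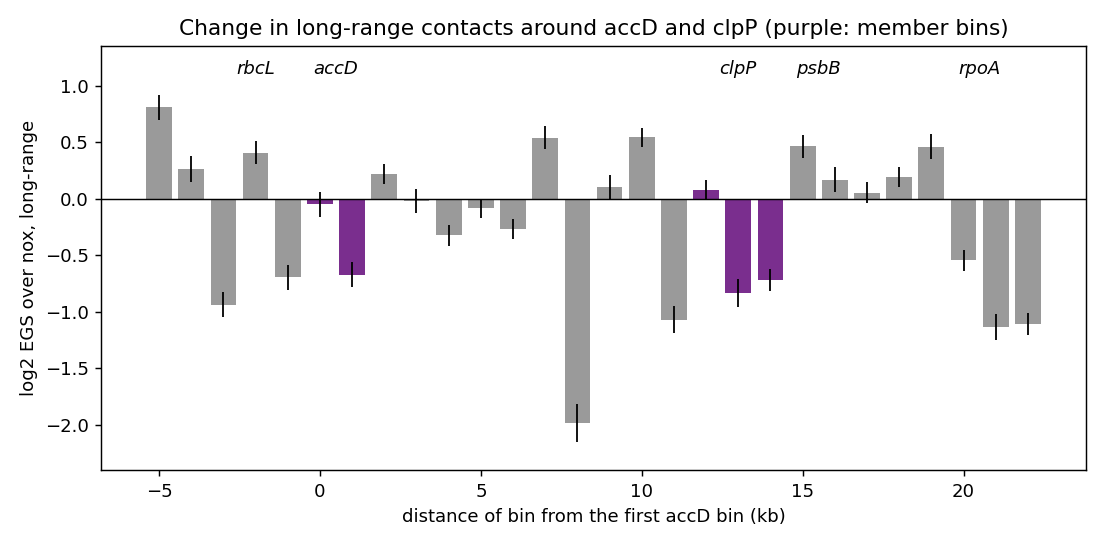
Log2 of EGS over nox long-range contacts for 28 bins, by distance in kb from the first accD bin, with bars at the fitted value and lines at ± 1 SE; accD and clpP bins are purple. Bins of both directions alternate over a few kb, and the lowest bin, at -1.98, lies between the loci in petL and petG.

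The difference between the loci themselves did not pass the test. accD over clpP, per bin, had log2 ratios of -0.03, 0.09, 0.15 and 0.03 in EGS and -0.06, -0.13, 0.17 and -0.33 in nox libraries. The groups overlapped, with a difference of 0.15 (exact permutation p = 0.229). Without the first clpP bin, which holds only a part of the gene, the difference was 0.44 (exact permutation p = 0.0286), and without nox replicate 3 it was 0.23 with the same p, so the call rests on these choices.

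Contacts summed over all other bins, which near neighbours dominate, gave the same 3 bins. The second accD bin was at -0.37 ± 0.09 on the log2 scale, and the second and last clpP bins were at -0.34 ± 0.08 and -0.50 ± 0.09, with edgeR adjusted p-values of 0.00032, 0.00027 and 1.2e-06. The first accD bin, at -0.18, and the first clpP bin, at -0.08, did not pass (adjusted p = 0.109 and 0.456 by edgeR). Over the map 25.8% of bins were called lower by this sum. With all contacts as the library size, 66 bins of the map were called higher and 3 lower, and the 3 bins called here stood at 0.00, 0.02 and -0.12 and did not pass. Without nox replicate 2 the first accD bin passed too, at -0.24 with an adjusted p of 0.0048, and so it did within the 4 shallower libraries, at -0.32 (0.010, both by edgeR).

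The next question was which near contacts changed. Only pairs of a bin with itself or with its neighbour were frequent enough to be tested among the accD and clpP pairs, 12 in all. The pair of the 2 accD bins was more frequent in EGS libraries, and so was the pair of the first and second clpP bins, whereas contacts within single bins were less frequent.

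The 2 accD bins were joined 367, 331, 275 and 206 times in EGS replicates 1 to 4, which is 0.675, 0.635, 0.747 and 0.586 per 1000 contacts of the library. In nox replicates 1 to 4 they were joined 248, 235, 120 and 124 times, or 0.350, 0.380, 0.336 and 0.304 per 1000. Every EGS library exceeded every nox library, and the difference was 1.81-fold (log2 0.85 ± 0.11, adjusted p = 6.0e-05 by edgeR over 381 pairs). The first and second clpP bins were joined 0.737, 0.741, 0.769 and 0.694 times per 1000 contacts in EGS and 0.486, 0.503, 0.513 and 0.477 in nox libraries. This rise was 1.40-fold (log2 0.49 ± 0.08, adjusted p = 0.00031 by edgeR), again with no overlap. Both joins run from a bin whose long-range share did not pass the test to one whose share was lower.

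The pair of the second and last clpP bins was at -0.27 ± 0.10 (adjusted p = 0.035 by edgeR), with overlapping groups, and the call was lost without any 1 of the EGS replicates or without nox replicate 4. The pair of the second accD bin with its right neighbour, which holds psaI and ycf4, was lower at -0.44 ± 0.14 (adjusted p = 0.015), also with overlapping groups. The remaining 3 neighbour pairs did not pass: rbcL to accD was at -0.15, rps18 and rpl20 to clpP at -0.11, and clpP to psbB at -0.30. Over the map 61.9% of neighbour pairs were called higher and 8.39% lower, with a median log2 difference of 0.45. The 2 rises within the loci thus follow the common direction and the 2 drops run against it.

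**Figure D3:**
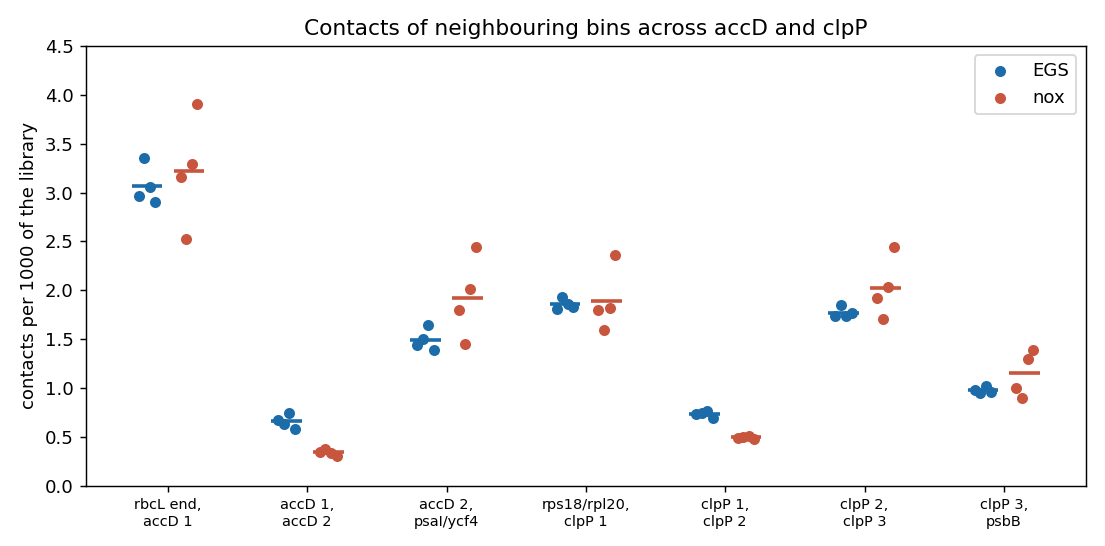
Contacts between neighbouring bins across accD and clpP, per 1000 contacts of the library (y axis), in EGS (blue) and nox (red) libraries, with horizontal bars at the group means. The labels accD 1 and 2 and clpP 1 to 3 number the bins of each locus. Only the pair of the 2 accD bins and that of the first and second clpP bins have no overlap between the groups.

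Contacts within a bin were called lower in EGS for all 5 bins, against 49.7% of bins of the map. The median log2 difference of such contacts over the map was itself below zero, at -0.21. All bins of the loci except the last clpP bin lay close to this median, at -0.25 to -0.31. The last clpP bin held 3.36, 3.45, 3.42 and 3.66 per 1000 contacts in EGS and 4.17, 4.25, 5.39 and 5.04 in nox libraries, with no overlap and a log2 difference of -0.52 ± 0.08 (adjusted p = 0.00029 by edgeR). The second clpP bin was at -0.31 ± 0.08 and the first at -0.26 ± 0.07 (adjusted p = 0.0065 and 0.0079 by edgeR). Their groups did not overlap in TMM-scaled counts, but they did per 1000 contacts of the library, where EGS replicate 4 (5.78 and 3.24) exceeded nox replicate 1 (5.76 and 3.20). The accD bins, at -0.25 and -0.26, overlapped between groups, and the first of them lost its call without EGS replicate 1, 2 or 3 or nox replicate 3 or 4, and the second without EGS replicate 3. With library totals and no TMM scaling, which moved the median over the 381 pairs from 0.00 to 0.12, the 2 rises and the drops within the second and last clpP bins still passed, and the other 5 calls did not. Without the count filter, in a fit of 12089 mostly empty pairs with a median of 0.15, none of the 9 calls held, and the 2 rises stood at 0.40 and 0.01 (adjusted p = 0.57 and 0.99 by edgeR).

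Distance was the next property compared. In EGS libraries both loci had more contacts per bin pair at 2 to 5 kb than at 20 to 50 kb, and this near-to-far ratio was lower in every nox library. The near-to-far ratio of accD was 2.13, 2.89, 3.01 and 1.92 in EGS and 1.02, 0.776, 0.302 and 0.938 in nox libraries. The groups did not overlap, at 2.49 ± 0.54 against 0.758 ± 0.320 (SD, n = 4, exact permutation p = 0.0286). The near band of accD held 136, 113, 68 and 34 contacts in EGS and 104, 47, 2 and 6 in nox libraries, so the nox ratios of replicates 3 and 4 rest on very few contacts. Within the 4 deeper libraries the difference was 1.62, close to the 1.73 over all libraries.

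The near-to-far ratio of clpP was 2.21, 2.38, 1.90 and 2.43 in EGS and 0.812, 0.958, 1.28 and 0.882 in nox libraries. The means were 2.23 ± 0.24 and 0.983 ± 0.207 (SD, n = 4, exact permutation p = 0.0286), with no overlap. With bands of 2 to 10 kb over 20 to 40 kb the difference shrank from 1.25 to 0.43 for clpP and from 1.73 to 1.14 for accD, each with an exact permutation p of 0.0286. The other bins of the large single copy region had 2.31 ± 0.22 in EGS and 0.923 ± 0.116 in nox libraries, so the loci follow the region they lie in. No difference between the loci and the region was tested.

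**Figure D4:**
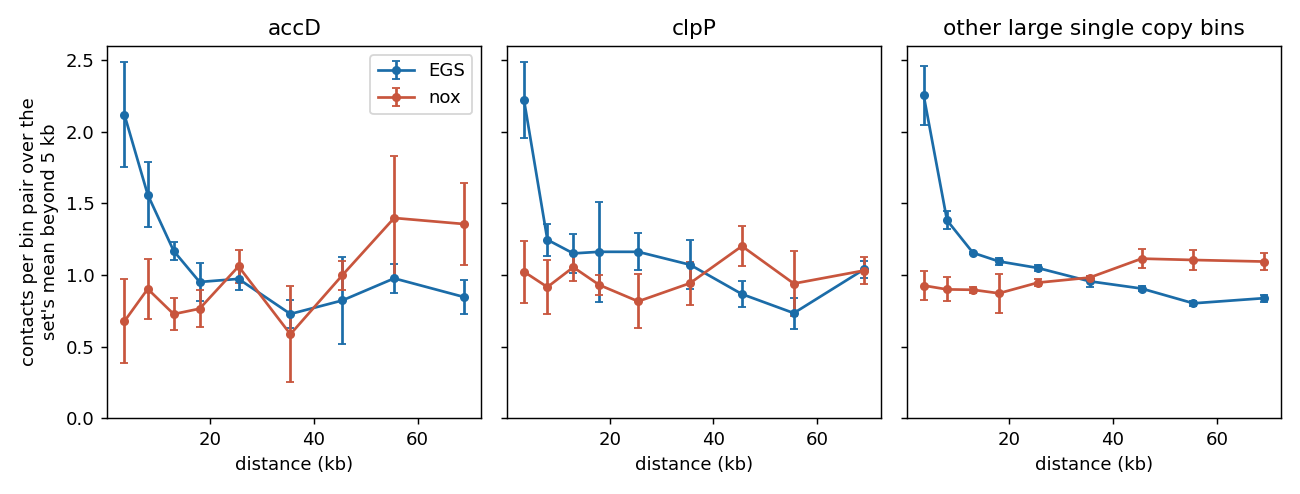
Contacts per bin pair relative to the same bins' mean beyond 5 kb (y axis) by distance in kb, for accD, clpP and the other large single copy bins, partners in single-copy bins only. Points are means and bars ± 1 SD over 4 libraries; at 2 to 5 kb the EGS values are 2.12, 2.22 and 2.25 and the nox values 0.68, 1.02 and 0.93.

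Beyond the near band, accD in EGS libraries declined from 1.56 ± 0.23 at 6 to 10 kb to 0.73 ± 0.10 at 31 to 40 kb. Its nox libraries reached 1.40 ± 0.43 at 51 to 60 kb. There nox replicates 1 to 4 had 1.22, 1.17, 1.15 and 2.04, so replicate 4, with 35 contacts, raised the mean. clpP in EGS libraries stayed between 1.25 and 1.07 from 6 to 40 kb. These courses were not tested. As shares of all contacts of a locus, none of 12 shares (2 loci and 6 distance bands) passed after Benjamini-Hochberg adjustment. A share that differed alone could not pass among 12, because 70 assignments give no exact permutation p under 0.0286. Contacts at 2 to 5 kb made up 1.85%, 1.34%, 0.885% and 0.860% of the clpP contacts in EGS and 0.773%, 0.674%, 0.147% and 0.153% in nox libraries, which do not overlap but reach an adjusted p of 0.343 (exact permutation p = 0.0286).

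The partners of the long-range contacts were compared in windows of 10 bins. Most NDH complex genes lie in the small single copy region. Relative to the other long-range contacts, those of accD and clpP with this region were lower in EGS libraries. A few contacts of the first bins with other regions were higher. No window fit took all contacts as the library size, the scaling under which no long-range bin total passed. Of 74 windows tested for the 5 bins, 28 were lower and 3 higher, against 18.9% lower and 22.3% higher over the 2129 windows of all bins. The first accD bin had 2 higher and 2 lower, the second 0 and 6, and the clpP bins in order 1 and 2, 0 and 9, and 0 and 9. Windows were not corrected for the long-range total of their own bin. Those of the second accD bin and the second and last clpP bins therefore partly repeat the drops in these totals (-0.67, -0.84 and -0.72). The median log2 differences of their windows were -0.39, -0.55 and -0.65. DESeq2 called 11 of the 74, and edgeR called 20 without nox replicate 1 and 20 without nox replicate 2.

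The largest drop joined the second clpP bin to the window from 110001 to 120000, which holds ndhF, ndhD and ccsA among others. It had 30, 31, 8 and 15 contacts in EGS and 111, 53, 10 and 19 in nox libraries. In TMM-scaled counts, on which overlap is judged for all windows, the groups did not overlap, with a log2 difference of -1.45 ± 0.22 (adjusted p = 5.7e-08 by edgeR). The last clpP bin with this window was at -1.28 ± 0.21, with the next window, from 120001 to 130000 with ndhA, ndhH and rps15, at -1.10 ± 0.21, and with the nearer genes from petD to rpl36 at -1.18 ± 0.28. The last of these values rests on few contacts, 11, 4, 3 and 2 in EGS and 26, 14, 2 and 3 in nox libraries. The second clpP bin with the window from 10001 to 20000, which holds the ATP synthase genes atpF, atpH and atpI, was at -1.05 ± 0.22. These 5 are the largest clpP drops without overlap between groups, with edgeR adjusted p-values of at most 0.00037, and each passed DESeq2's test too.

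For accD the largest drop joined the second bin to the window from 110001 to 120000, with 31, 29, 15 and 6 contacts in EGS and 77, 44, 6 and 14 in nox libraries (log2 -1.06 ± 0.22, adjusted p = 2.9e-05 by edgeR). The first bin with this window was at -0.86 ± 0.21. With the window from 120001 to 130000 the second bin was at -0.79 ± 0.21 and the first at -0.65 ± 0.21. The second bin with the window from 1 to 10000, which holds psbA, matK and atpA, was at -0.64 ± 0.21. The last of these, and the first bin with the window from 120001 to 130000, lost their call without EGS replicate 1, and the former was at an adjusted p of 0.056 without nox replicate 2. DESeq2 gave adjusted p-values of 0.10 to 0.19 for these 2 and for the second bin with the window from 120001 to 130000. The accD drops named so far are those without overlap between groups. With overlapping groups, the second bin was also lower with 3 windows of the large single copy region. These were 20001 to 30000, 30001 to 40000 and 10001 to 20000, at -1.05, -0.76 and -0.67 (edgeR adjusted p = 4.2e-05, 0.0018 and 0.012).

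The 2 rises without overlap both belonged to the first accD bin. With the repeat window from 140001 to 150000, which holds ndhB, rps7 and ycf2, it had 40, 28, 19 and 11 contacts in EGS and 22, 14, 0 and 3 in nox libraries (log2 0.92 ± 0.27, adjusted p = 0.0040 by edgeR). This call was lost without nox replicate 1, at an adjusted p of 0.061. With the window from 40001 to 50000, which holds psaA, rps4 and ndhK, it had 80, 38, 24 and 17 contacts in EGS and 53, 22, 2 and 4 in nox libraries (log2 0.62 ± 0.21, adjusted p = 0.013). This call was lost with DESeq2 (adjusted p = 0.088), without EGS replicate 1 (0.060) and without nox replicate 2 (0.18).

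By region, the share of the long-range contacts of accD that lay in the small single copy region was 10.3%, 11.8%, 12.1% and 11.6% in EGS and 17.4%, 17.0%, 24.0% and 29.4% in nox libraries. That of clpP was 8.86%, 10.5%, 8.43% and 14.3% in EGS and 16.9%, 18.3%, 27.1% and 19.3% in nox libraries. Neither locus had overlapping groups, and the differences were -10.5 and -9.91 percentage points. In the inverted repeat the share of accD was 30.0% ± 1.7 in EGS and 21.5% ± 2.3 in nox libraries (SD, n = 4), and that of clpP 32.2% ± 2.9 against 22.2% ± 3.3. All 4 differences had an exact permutation p of 0.0286 and an adjusted p of 0.0857 over 12 shares, a family chosen after the windows were seen. That exact p is the smallest possible, so these 4 could not pass unless other shares of the family were also near it.

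The other large single copy bins showed the same shift, from 19.4% ± 2.9 in nox to 10.7% ± 0.7 in EGS libraries for the small single copy region and from 22.3% ± 3.5 to 31.6% ± 1.8 for the repeat. Relative to them, accD and clpP differed between groups by log2 values from -0.11 to 0.07, and no exact permutation p was under 0.371. The windows from 110001 to 130000 were lower for all 5 bins, 10 of 10 windows, against 55.4% of the 168 such windows of all large single copy bins. These window counts, too, were not corrected for the long-range totals of the bins.

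**Figure D5:**
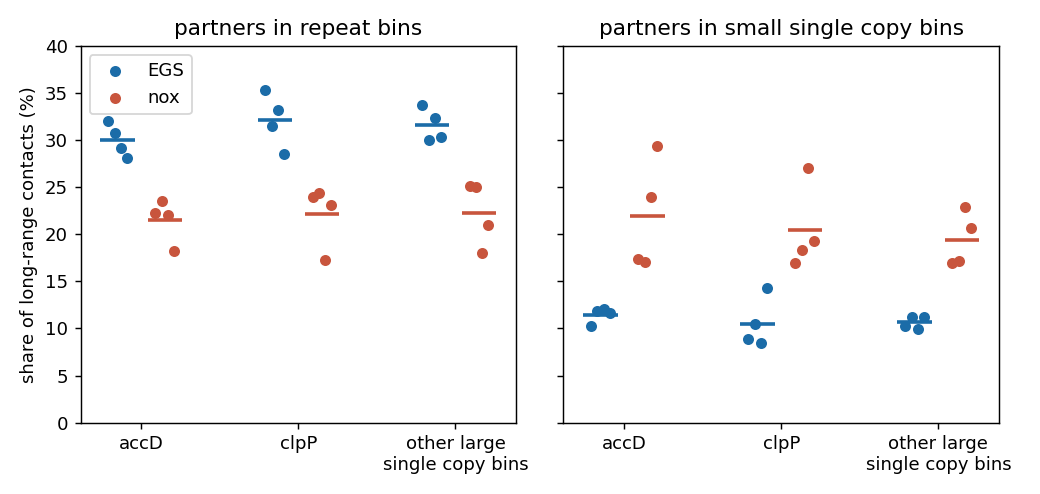
Share of long-range contacts (%) with partners in the inverted repeat (left) and in the small single copy region (right), for accD, clpP and the other large single copy bins, in EGS (blue) and nox (red) libraries; bars are group means. The groups do not overlap in any of the 6 columns, and the loci sit close to the other bins of their region.

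Contact between the loci themselves, 11 to 14 kb apart, was rare. The 6 pairs of an accD bin with a clpP bin had 24, 17, 13 and 6 contacts in EGS and 35, 15, 1 and 3 in nox libraries. The count that each library's mean at those distances gives was 37.0, 23.0, 13.1 and 8.30 in EGS and 36.8, 23.3, 2.42 and 3.40 in nox libraries. All 8 libraries lay below that mean, and the log2 of observed over this mean was -0.39 ± 0.26 in EGS and -0.54 ± 0.55 in nox libraries (SD, n = 4). The difference, 0.16, had an exact permutation p of 0.657, and it turned to -0.09 without nox replicate 3, whose value rests on 1 contact. With the first clpP bin left out the difference was -0.22, and on balanced maps it was 0.46 (exact permutation p = 0.286), so no difference was detectable at this depth.

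Contacts with genes of the plastid's main functional groups were compared as log2 of observed contacts over each library's mean for the same distance and kind of bin pair. Kind tells only single-copy from repeat bins. The mean thus does not remove the shift in contacts with the small single copy region that other large single copy bins showed. Those bins were not compared with the lists. None of 12 comparisons (2 loci and 6 lists) passed after adjustment, and 1 had an unadjusted exact permutation p under 0.05. A comparison at the smallest exact permutation p, 0.0286, could not pass alone among 12, whatever its size. clpP with the 11 NDH genes, which encode the plastid NADH dehydrogenase-like complex, was at -0.26, -0.19, -0.29 and 0.14 in EGS and 0.16, 0.14, 0.65 and 0.54 in nox libraries (difference -0.52, exact permutation p = 0.0286, adjusted p = 0.229). The groups touch closely but do not overlap. accD with the same genes differed by -0.26 (exact permutation p = 0.229).

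With the other genes read by the nuclear-encoded polymerase (rpoB, rpoC1, rpoC2, ycf1, ycf2 and the other of the 2 loci), accD was at -0.29 ± 0.09 in EGS and -0.24 ± 0.35 in nox libraries (SD, n = 4), and clpP at -0.12 ± 0.13 and -0.22 ± 0.14. Neither differed between groups beyond the spread, with exact permutation p-values of 0.914 and 0.371. The photosystem and Rubisco genes (psbA, rbcL, psaA, psaB, psbB, psbC, psbD and psbE) gave accD -0.06 ± 0.26 in EGS and -0.60 ± 0.42 in nox libraries (exact permutation p = 0.0571, adjusted p = 0.229), and clpP -0.15 ± 0.17 against -0.27 ± 0.54. For accD the difference was 0.05 within the deeper libraries and 1.03 within the shallower ones, where nox counts are lowest.

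The cytochrome b6f genes (petA, petB, petD, petG, petL and petN) gave accD a difference of -0.54 (exact permutation p = 0.0571, adjusted p = 0.229) and clpP one of -0.18. The ATP synthase genes (atpA, atpB, atpE, atpF, atpH and atpI) gave -0.20 and -0.15, and the ribosomal RNA genes rrn16S and rrn23S gave -0.17 and -0.38, where single libraries had as few as 1 contact. On balanced maps, in which unequal long-range totals of bins were removed, also none of the 12 passed.

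As a description, the bins whose long-range totals ran most like those of each locus over the 8 libraries were named. Likeness was the mean absolute difference of log2 long-range shares after centring each bin on its own mean. For accD, at the mean of its bins, the nearest were the bins starting at 112001 (ndhF), 110001 (ycf1 and ndhF) and 118001 (ndhE and ndhG), with 0.085, 0.090 and 0.091 against a median of 0.33 over 143 bins. For clpP they were the bins starting at 9001 (trnG, trnR and atpA), 17001 (rpoC2) and 118001 (ndhE and ndhG), with 0.050, 0.065 and 0.070 against a median of 0.36 over 142 bins.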

How the data were processed

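The authors deposited unnormalized contact counts, 1 column per library, for each of 12090 bin pairs of the plastid chromosome at a bin size of 1 kb, per the file headers. The submitters' processing notes name Trim Galore 0.4.1, Juicer and the TAIR10 build; the role of each, read filters and the treatment of reads with several positions are not given in the sources used here. Sample titles gave the groups and the replicate numbers. Gene names came from a RefSeq table of TAIR10.1, so only bin positions of the deposited table, 1-based, are printed.

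The members, gene lists and tests were chosen with earlier results of these data known. The inverted repeat was found from bin pairs on the map's anti-diagonal with at least 1000 contacts. Long-range totals, bin totals, bin pairs and partner windows were fitted for the whole map with edgeR 4.0.16 in R 4.3.3 (quasi-likelihood test, TMM, prior count 2, Benjamini-Hochberg, threshold 0.05), with filterByExpr at a minimum count of 10 for pairs and windows. Standard errors are the log2 change over the square root of F. Measures with 1 value per library were tested by exact two-sided permutation (70 assignments). DESeq2 1.42.0, Python 3.11.15, numpy 2.4.6 and pandas 2.3.3 were also used. The count tests were also run on simulated libraries, drawn from a single pooled profile with a common dispersion. Such libraries lack the differences seen between nox replicates, so this run does not give the error rate of the calls made here. Named windows are up to 5 rises and 5 drops per locus among those past the threshold without overlap between groups. Alternatives covered scaling, the filter, DESeq2, the distance limits, library depth, a replicate block and each library left out.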

Additional observations from a re-analysis of the deposited data

Results flagged for a closer look

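Among 124 groups of 4 libraries examined, 1 held a library far from the others, where chance alone would mark about 1 in 20. For contacts of clpP with the photosystem and Rubisco genes, EGS replicate 2 had a log2 of observed over mean contacts of -0.40, against -0.05, -0.09 and -0.06 in EGS replicates 1, 3 and 4. No other value examined was marked. The courses of contacts over distance and the partner windows were not examined in this way.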

How the results depend on the processing

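The 3 long-range calls and their direction held under library totals without TMM, DESeq2, a limit of 10 kb, the same-bin offset, either depth class, the replicate block and each library left out; single-copy bins alone gave 4. With all contacts as the library size 0 of the 5 bins passed for long-range totals and 0 for bin totals (unadjusted, 4 and 86 of all bins had p under 0.05 by edgeR), the long-range values of the bins starting at 58001, 70001 and 71001 turned to 0.16, 0.016 and 0.14, and the bin total at 70001 to 0.020. Bin pair calls numbered 9, with 4 without TMM and 6 to 12 with single libraries left out. Without the filter 3 pairs were called, none of them among the 9. Partner window calls numbered 31, with 11 by DESeq2, 29 with the replicate block and 20 to 36 with single libraries left out. Contacts of the bin at 71001 with the genes from petD to rpl36 fell under the filter, and have no value, with any of 4 libraries left out. The difference in accD to clpP contact, 0.16, was 0.46 on balanced maps, -0.22 with the bins starting at 70001 and 71001 alone and -0.089 to 0.31 with single libraries left out. The accD minus clpP long-range difference, 0.15, was 0.44 with those 2 clpP bins, which passed, and 0.066 to 0.23 with single libraries left out. The cause of these moves was not tested. Whether replicate numbers pair the libraries was left undecided. Same-numbered deviations correlated at 0.45, -0.27, -0.28 and 0.22, but differently numbered libraries were not compared in this way. Replicates 1 and 2 were the deeper libraries in both groups. The replicate block gave 3 long-range, 3 bin total and 8 bin pair calls, without that of the bins starting at 70001 and 71001 (-0.26, adjusted p = 0.052), and left the near-to-far differences at 1.73 and 1.25, where sign flips of 4 pairs cannot give a p under 0.125. Few long-range contacts in nox replicates 3 and 4 limit the precision of partner values.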
